A study of Rattus norvegicus with 6 samples.

Results

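Glycolysis and hypoxia response genes were followed in the rat common carotid artery after a clot had been removed. They were 37 genes chosen by symbol: glucose transporters, the enzymes of glycolysis and its regulators, lactate dehydrogenases and lactate transporters, the hypoxia-inducible factors with the enzymes that control them, and other genes that low oxygen is known to induce. All 37 were among the 24005 gene symbols of the count table, and all 37 were among the 15860 genes that passed the filter on low counts and were tested. Whole rat arteries were measured by sequencing of polyadenylated RNA. The control was 1 normal, uninjured artery. The treated arteries had received ferric chloride, an oxidant that injures the vessel wall and starts a clot, and had then been reopened with sonodynamic therapy (ultrasound that excites a sensitizer) plus what the submitters term physical-explosion therapy. They were collected 1 day (3 libraries) or 7 days (2 libraries) after recanalization. Strain, sex and age were not given in the labels, and neither was whether each library came from its own animal, so a p-value here reflects the spread among these samples, which may be technical. No group had the injury or the therapy alone, so ferric chloride, the clot and each therapy cannot be told apart.

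Glycolysis splits glucose into pyruvate in the cytosol. Hexokinases trap glucose inside the cell, phosphofructokinase sets the pace of the upper steps, and the lower steps recover ATP. Lactate dehydrogenase turns pyruvate into lactate, which leaves the cell with a proton through monocarboxylate transporters. When oxygen is low, prolyl hydroxylases (the products of Egln1 and Egln3) stop marking the alpha subunits HIF-1α (Hif1a) and HIF-2α (Epas1) for destruction. The stabilized protein pairs with ARNT and binds short DNA elements near many genes of this pathway. Because that control acts on the protein, the mRNA levels of Hif1a and Epas1 do not report HIF activity. Macrophages and neutrophils rely heavily on glycolysis and express their own hexokinase, Hk3, while smooth muscle, the main cell of the carotid media, uses other isoforms.

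The letters at which HIF can bind were looked for in the promoters, because many of these genes are textbook HIF targets. The core of the hypoxia response element, ACGTG or GCGTG on either strand (CACGT or CACGC when read on the strand shown), was searched in windows of 300 bases, 250 before and 50 after the start of each gene, from RefSeq on GRCr8. Of the 37 genes, 33 had a window, and Pgk1, Slc2a3, Bnip3l and Ndrg1 had none in the table. A gene with several windows was counted by the window with the most matches. At least 1 match was found for 25 of the 33 genes (75.8%), against 60.3% of the 11228 tested genes with a window. Counted singly, 41.6% of all 33469 windows held a match. At least 3 matches were found for 11 of the 33 genes, against 14.6% of the tested genes. The palindrome CACGTG counts as 2 matches, 1 on each strand, and is also the letters of an E-box. A match is a description of the letters and not a binding site. Of the windows, 5 are printed 5′ to 3′ on the strand of the gene, in lower case with the matches in capitals: 3 of genes with higher levels at day 1 and several matches, 1 of a gene with lower levels and several matches, and 1 of Hk2, which had no match.
Ldha (chr1:106507842-106508141, plus strand): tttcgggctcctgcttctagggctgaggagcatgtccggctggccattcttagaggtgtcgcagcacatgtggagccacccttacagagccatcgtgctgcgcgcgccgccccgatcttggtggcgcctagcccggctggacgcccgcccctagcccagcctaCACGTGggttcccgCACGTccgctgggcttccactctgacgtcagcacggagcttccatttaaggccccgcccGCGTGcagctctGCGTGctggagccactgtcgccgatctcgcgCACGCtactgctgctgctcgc
Slc2a1 (chr5:138002272-138002571, plus strand): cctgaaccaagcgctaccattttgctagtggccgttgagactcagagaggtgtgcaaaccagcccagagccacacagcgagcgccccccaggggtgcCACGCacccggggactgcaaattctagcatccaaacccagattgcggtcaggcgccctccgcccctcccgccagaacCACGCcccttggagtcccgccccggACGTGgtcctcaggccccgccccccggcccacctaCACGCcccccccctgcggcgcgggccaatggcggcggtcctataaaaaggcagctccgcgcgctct
Slc16a1 (chr2:194812410-194812709, plus strand): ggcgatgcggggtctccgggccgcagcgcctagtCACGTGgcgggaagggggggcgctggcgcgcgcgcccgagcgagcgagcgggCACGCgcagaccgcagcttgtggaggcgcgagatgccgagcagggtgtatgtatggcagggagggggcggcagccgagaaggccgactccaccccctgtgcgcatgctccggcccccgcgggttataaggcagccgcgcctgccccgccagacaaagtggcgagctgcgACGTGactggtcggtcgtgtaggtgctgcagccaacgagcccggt
P4ha2 (chr10:38743644-38743943, plus strand): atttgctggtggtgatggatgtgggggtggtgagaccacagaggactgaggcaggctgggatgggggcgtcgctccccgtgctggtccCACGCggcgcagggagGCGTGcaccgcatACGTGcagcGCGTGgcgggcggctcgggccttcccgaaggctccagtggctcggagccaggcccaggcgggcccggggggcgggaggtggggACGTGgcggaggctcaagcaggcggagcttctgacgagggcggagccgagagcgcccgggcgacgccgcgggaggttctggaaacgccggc
Hk2 (chr4:116841226-116841525, minus strand): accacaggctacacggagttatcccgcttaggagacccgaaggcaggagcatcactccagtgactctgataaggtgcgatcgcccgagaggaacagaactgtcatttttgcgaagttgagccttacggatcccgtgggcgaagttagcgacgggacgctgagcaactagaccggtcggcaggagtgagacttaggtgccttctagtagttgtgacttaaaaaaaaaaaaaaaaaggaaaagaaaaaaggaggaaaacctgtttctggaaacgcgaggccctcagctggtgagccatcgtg
Positions count from the start of the gene as 1, with -1 just before it. The Ldha window had 6 matches, of which the palindrome that begins at -87 gave 2, and the P4ha2 window had 5. Slc2a1 and Slc16a1 had 4 each. Slc16a3 had none either, Hk3 had 1 and Hif1a had 3. Matches did not separate the genes by direction: of the 24 genes with a window and a positive day 1 log2 fold change, 18 had a match and 7 had at least 3, and of the 9 with a negative one, 7 had a match and 4 had at least 3.

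Libraries held 30078022 to 47240013 counts each. Levels are given as CPM, the count scaled to the library total after normalization. The floor of 3 counts per library equals 0.0598 to 0.0974 CPM, and floors and intervals cover only counting error. Day 1 replicate 1 differed from its group mates, and the correctness of its label could not be settled. Its log2 CPM correlated across genes, which are not independent, at 0.948 with the control and at 0.883 and 0.919 with day 1 replicates 2 and 3. The summed level of 10 macrophage markers was 79.9 CPM in the control, 54.1, 6173 and 2778 in day 1 replicates 1 to 3, and 6216 and 5048 at day 7. In day 1 replicate 1 only 2 of the 10 were above the control, while all 10 were in each other treated library. Smooth muscle markers (8 genes) summed to 27109 CPM in the control, 27934, 6415 and 9663 at day 1, and 17180 and 16936 at day 7, with none of the 8 at 0 in any library. Endothelial markers (8 genes) summed to 1136 CPM in the control, 99.5, 1004 and 205 at day 1, and 1480 and 1150 at day 7. Because these are bulk samples, more cells of a type and more RNA per cell cannot be told apart, and the part of cell makeup in the results below was not tested. The 3 groups were fitted together with the quasi-likelihood test of edgeR, with a call at a Benjamini-Hochberg adjusted p under 0.05 over all tested genes. The control was assumed to vary like the treated groups.

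At day 1 the genes were on balance higher than in the normal artery. The listed genes of glucose entry and of the lower steps were above the control in each day 1 library. Of the lactate and pyruvate genes, so were Ldha, Slc16a1 and Slc16a3, while Ldhb and Pdk1 were above it in replicate 1 only. The largest log2 fold changes were in Hk3, Slc16a1 and Hk2 among genes averaging at least 4 log2 CPM. The oxygen-sensing genes and other hypoxia targets had no common direction. Of the 37, 28 had a positive log2 fold change and 9 a negative one, against 54% positive among all tested genes. Their median log2 fold change was 0.53 beside 0.06 over all tested genes, and the medians of the single libraries against the control were 0.39, 0.65 and 0.38. In all 3 day 1 libraries 20 genes were above the control (27.5% of all tested genes) and 5 were below it (27.2%). In all 5 treated libraries 16 genes were above the control (20.1% of tested genes) and 4 were below it (19%). Both counts above the control include Slc2a3, which had 0 counts there and 1 to 11 in treated libraries. No gene was called by edgeR with all libraries (0% of tested genes), and 6 of the 37 had an unadjusted p under 0.05, 5 of them higher (6.13% of tested genes) and 1 lower (2.53%). Without day 1 replicate 1, edgeR called Hk2, Hk3 and Slc16a1, all higher, in a comparison that then called 5.61% of genes. DESeq2 with all libraries called the same 3 genes and 5.65% of the genes to which it gave an adjusted p. On simulated counts for this comparison DESeq2 called 146 unchanged genes and 58 of 100 genes changed 4-fold. There edgeR called 14 unchanged genes and 16 of the 100, so it missed most of the simulated 4-fold changes. Of 100 genes changed 16-fold, edgeR called 94 and DESeq2 100. The simulated counts varied independently from gene to gene, with no library set apart as day 1 replicate 1 was, so these rates may not hold for the real libraries.

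At day 7 most of these differences were smaller, and no gene was called by edgeR (0% of tested genes). Of the 37, 25 had a positive log2 fold change against the control, beside 54.8% of all tested genes, and 12 a negative one. The median was 0.36, or 0.27 with Slc2a3, which had 0 counts in the control, set to the floor, beside 0.09 over all tested genes. It rested on replicate 1: the library medians were 0.36 in replicate 1 and -0.01 in replicate 2, and the median was 0.049 with replicate 1 left out. Both day 7 libraries were above the control for 18 genes (42.9% of tested genes) and below it for 9 (36.2%). Slc2a3 is among the 18, although with levels under 3 counts set to 3 its log2 ratios were -0.29 and -0.10. At an unadjusted p under 0.05, 4 genes were higher (6.12% of tested genes), namely Hk2, Hk3, Slc16a3 and Ndrg1, and 0 were lower (3.97%). Without day 1 replicate 1, Hk3 alone was called, among 4.39% of genes, as it was by DESeq2 with all libraries, among 5.22%.

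Between the 2 times, 26 of the 37 genes were lower at day 7 and 11 higher, beside 49.9% higher among all tested genes, with a median log2 difference of -0.14 beside 0.00. Scaled by library total alone, which moved the median of all genes to 0.11, 20 were lower and 17 higher, with a median of -0.04. Neither edgeR with all libraries (0% of tested genes) nor DESeq2 (3.14%) called any of the 37. Every day 7 library was below every day 1 library for 9 genes (16% of tested genes): Slc2a1, Slc2a3, Hk1, Hk2, Pfkfb4, Gapdh, Pgk1, Pgam1 and Hif1a. For Slc2a3 this rested on 4, 11 and 5 counts at day 1 and 4 and 1 at day 7, too few to compare. The reverse held for Bnip3l alone (17.2%). At an unadjusted p under 0.05, Hk2 and Pfkfb4 were lower (5.43% of tested genes) and 0 genes were higher (4.67%). These comparisons share libraries with those above, and an exact permutation test of 3 against 2 libraries cannot go below a two-sided p of 0.2.

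**Figure D1:**
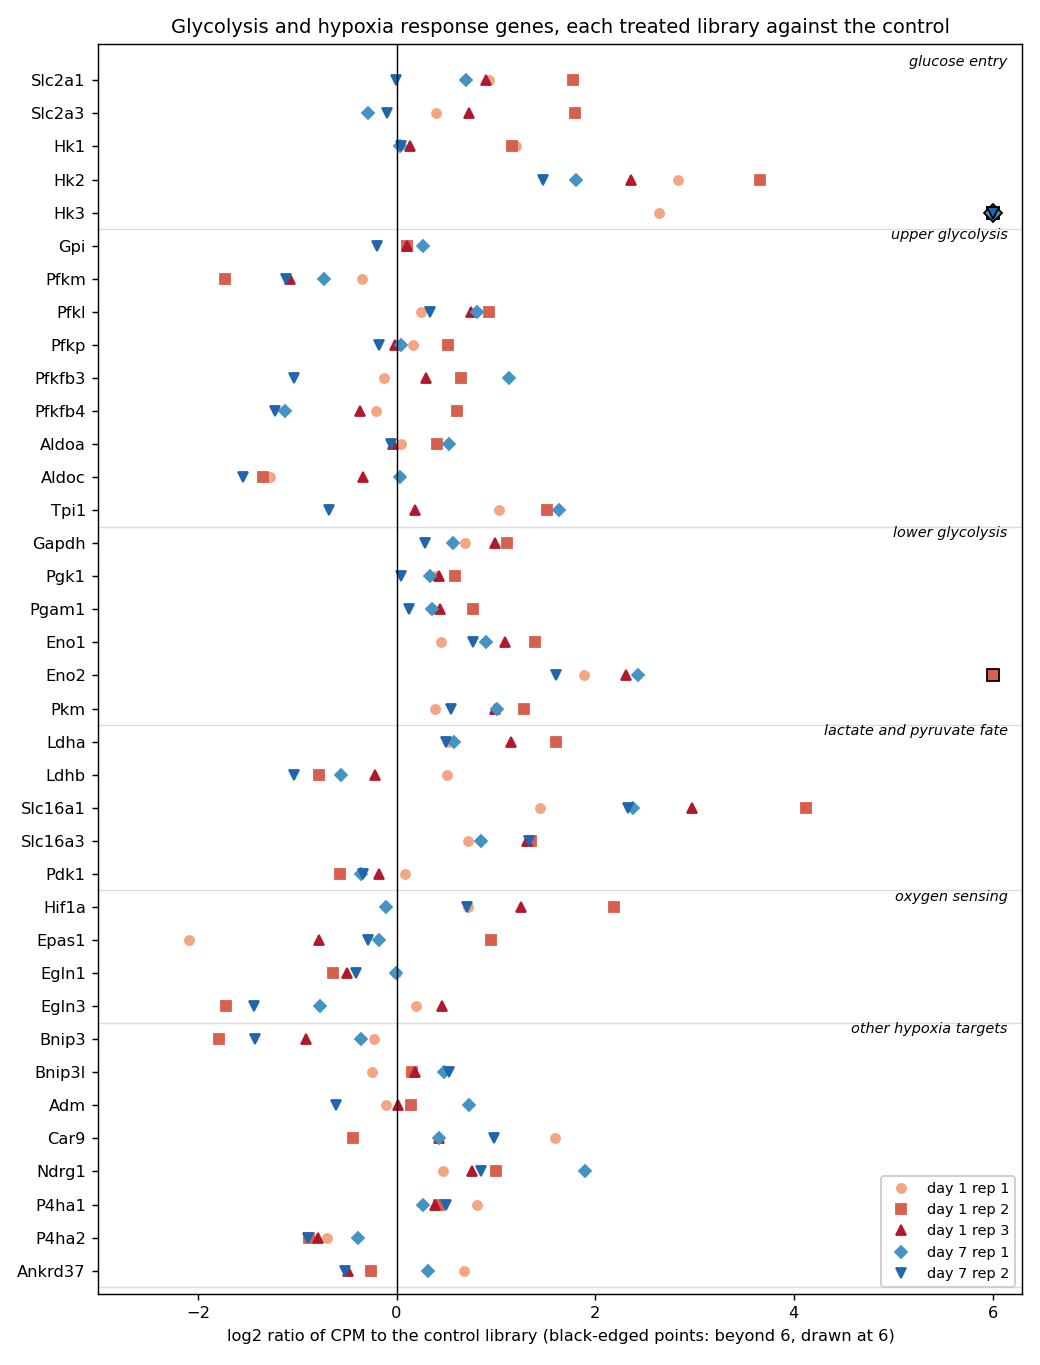
Log2 ratio of CPM to the control library for each of the 37 genes (rows, grouped by role) in the 3 day 1 and 2 day 7 libraries (points). Levels under 3 counts were set to 3 counts, and points beyond 6 are drawn at 6 with a black edge. Glucose entry and lower glycolysis lie mostly to the right of 0, and Pfkm, Aldoc, Bnip3 and P4ha2 mostly to the left.

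All 5 genes of glucose entry were above the control in every day 1 library, beside 27.5% of tested genes. For Slc2a3 this rested on 4, 11 and 5 counts against 0. Hexokinase 2, the inducible hexokinase of muscle, fat and growing cells, was at 18.2 CPM in the control, at 130, 230 and 93.4 CPM in day 1 replicates 1 to 3, and at 63.6 and 50.7 CPM in day 7 replicates 1 and 2. The 3 groups did not overlap: every day 1 library was above both day 7 libraries, and those were above the control. The log2 fold change at day 1 was 3.05 (SE 0.635), with an edgeR adjusted p of 0.429, and it was 3.15 without day 1 replicate 1, with an edgeR adjusted p of 0.0492. Over all alternatives that p ran from 1.37e-06 to 0.726. At day 7 the log2 fold change was 1.65 (SE 0.598, edgeR adjusted p 0.477), and day 7 differed from day 1 by -1.40 on the log2 scale (SE 0.430, edgeR adjusted p 0.459). In day 1 replicate 1, where macrophage markers were near the level of the control, Hk2 lay between the other day 1 libraries. Dividing cell markers (4 genes) summed to 18.6 CPM in the control, to 156, 124 and 129 at day 1 and to 46.5 and 86.7 at day 7, in the same order of groups as Hk2, and their part in its level was not tested.

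Hk3, the hexokinase of myeloid cells, behaved otherwise. It was at 0.0325 CPM in the control, which is 1 count, at 0.608, 111 and 58.9 CPM in day 1 replicates 1 to 3, and at 95.3 and 49.3 CPM at day 7. It was near 0 in both libraries that had few macrophage markers and high in the 4 others. Against the single control count the day 1 mean was 1755 times higher (95% interval 315 to 69305, for counting in the control only), and day 1 replicate 1 was 18.7 times higher (3.36 to 740). The edgeR adjusted p was 0.577 with all libraries and 0.00806 without day 1 replicate 1 at day 1, and 0.477 and 0.00799 at day 7. Neutrophil markers (10 genes), another myeloid list, summed to 3.44 CPM in the control, to 27.2, 63.9 and 98.5 at day 1 and to 14.5 and 14.6 at day 7. Of the 10, 9, 9 and 10 were above the control in the day 1 libraries, and 7 and 3 at day 7. In day 7 replicate 2, Csf3r alone gave 12.1 of the 14.6 CPM. The part of macrophages and neutrophils in the Hk3 level was not tested.

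Hk1, the hexokinase of most tissues, was at 109 CPM in the control, at 251, 244 and 120 CPM at day 1 and at 112 and 113 CPM at day 7. Its day 1 libraries were all above the others, the third narrowly (log2 fold change 0.91, SE 0.483, edgeR adjusted p 0.600). Slc2a1, the widespread glucose transporter GLUT1, was at 44.2 CPM in the control, at 84.0, 151 and 82.3 CPM at day 1, and at 71.9 and 43.9 CPM at day 7. It was above the control in every day 1 library (log2 fold change 1.26, SE 0.518, edgeR adjusted p 0.578), and day 7 lay on both sides of it, or above it when scaled by library total alone. Slc2a3, the high-affinity transporter GLUT3, had 0 counts in the control, 4, 11 and 5 at day 1, and 4 and 1 at day 7, so GLUT1 carried almost all glucose transporter mRNA of this pair.

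The mix of hexokinases differed between libraries. On the per-length scale of the deposited FPKM, the count scaled by gene length and library total, Hk1 took 89.7% of the summed hexokinase level in the control, 73.7%, 47.6% and 49.5% in the day 1 libraries, and 44.6% and 57.3% at day 7. Hk2 took 10.3%, then 26.1%, 30.7% and 26.3%, then 17.4% and 17.6%. Hk3 took 0.0267%, then 0.179%, 21.7% and 24.2%, then 38.0% and 25.0%. The Hk2 share was therefore highest in the day 1 libraries and the Hk3 share in the libraries rich in macrophage markers. The summed level was 35.9 FPKM in the control, 90.3, 164 and 77.0 at day 1, and 81.7 and 63.7 at day 7. Shares were not tested.

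**Figure D2:**
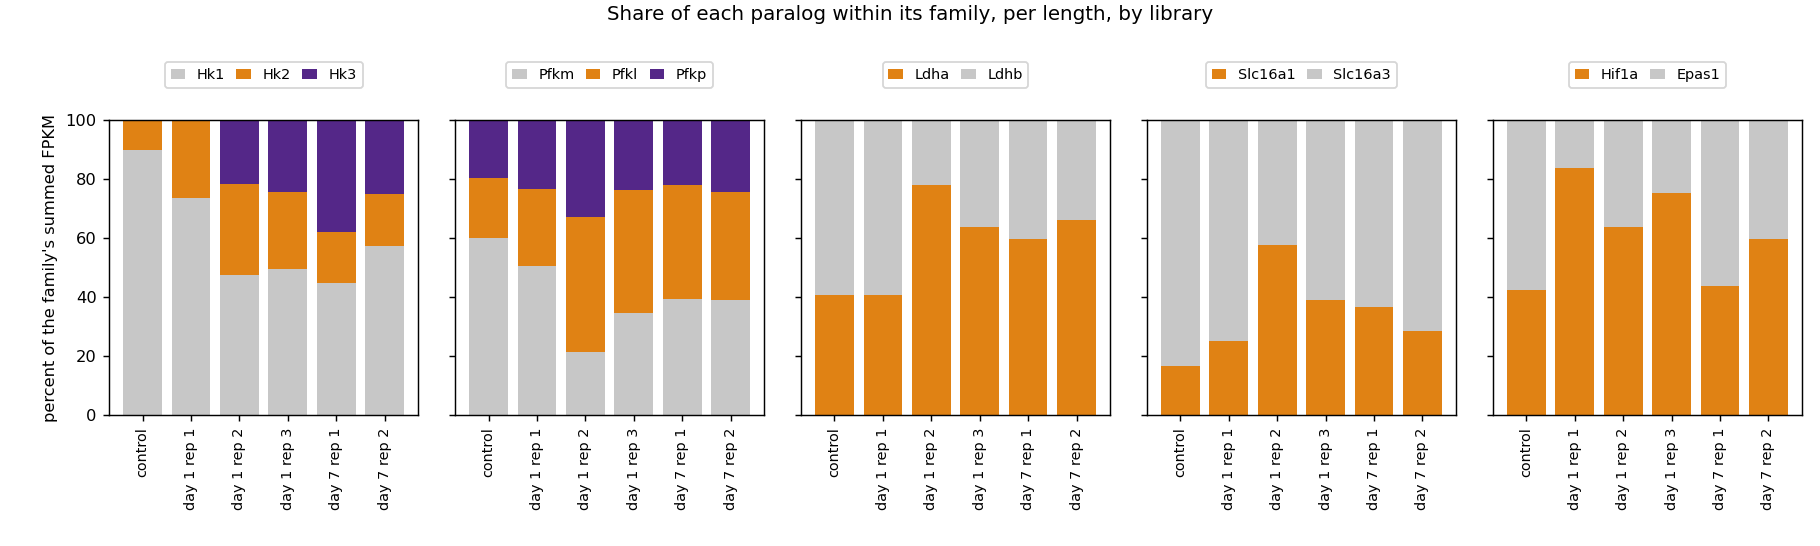
Percent of the summed FPKM taken by each paralog (stacked bars, 0 to 100) in each of the 6 libraries, for hexokinases, phosphofructokinases, lactate dehydrogenases, lactate transporters and the HIF alpha subunits. The Hk1 part is largest in the control at 89.7%, and Ldha passes Ldhb in 4 of the 5 treated libraries but not in day 1 replicate 1.

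The upper steps differed little as a group at day 1: 7 of 9 genes had a positive log2 fold change, with a median of 0.15, and none had an unadjusted p under 0.05. At day 7 the libraries parted: the median was 0.27 in replicate 1, with 7 of 9 genes above the control. In replicate 2 it was -0.68, with 1 of 9 above. Within the group the phosphofructokinase subunits also parted. Pfkm, the muscle form, was at 114 CPM in the control, at 89.7, 34.4 and 54.3 CPM at day 1 and at 68.9 and 52.8 CPM at day 7, below the control in every treated library. Pfkl, the liver form, was at 39.3 CPM in the control, at 46.7, 74.9 and 65.8 CPM at day 1 and at 68.6 and 49.7 CPM at day 7, above the control in every one. Neither passed (log2 fold changes at day 1 of -0.94, SE 0.511, and 0.67, SE 0.371, with edgeR adjusted p of 0.601 and 0.603). Per length, Pfkm took 60.0% of the 3 subunits in the control and 21.2% to 50.5% in the treated libraries. Summed smooth muscle markers were also below the control in all treated libraries but day 1 replicate 1, and their part in this was not tested.

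Pfkfb3 and Pfkfb4 make fructose-2,6-bisphosphate, the activator of phosphofructokinase. Pfkfb3 was at 111 CPM in the control, at 102, 175 and 137 CPM at day 1, and at 244 and 54.4 CPM at day 7, so the day 7 libraries lay on both sides of all others. Skeletal muscle markers (10 genes) summed to 101 CPM in the control, to 121, 31.6 and 34.4 at day 1 and to 209 and 62.5 at day 7. The sum was highest in the same library as Pfkfb3 but lowest in day 1 replicates 2 and 3, where Pfkfb3 was next highest. In the control, Acta1 and Ckm gave 43.8 and 40.2 CPM of it. Of the 10 markers, 9 were above the control in day 7 replicate 1, and 4 or 5 in each other treated library. Myh1 was at 52.1 CPM in day 7 replicate 1 and at 0.0640 to 1.46 CPM elsewhere. The part of skeletal muscle in the Pfkfb3 level was not tested. Pfkfb4 was at 4.90 CPM in the control, at 4.26, 7.46 and 3.80 CPM at day 1, and at 2.25 and 2.10 CPM at day 7. Both day 7 values were below all others, with a log2 difference from day 1 of -1.25 (SE 0.467, edgeR adjusted p 0.484). Of the rest, Gpi, Pfkp and Aldoa, which carry the middle of the pathway, had day 1 log2 fold changes of 0.11 to 0.24. Aldoc, the brain aldolase, was at 11.6 CPM in the control and at 3.98 to 11.9 CPM in treated libraries. Tpi1 was at 0.547 to 2.73 CPM, far below Aldoa at 421 to 631 CPM, although every cell uses triosephosphate isomerase, and on the per-length scale it was at 0.398 to 2.00 FPKM. Its reads may have been assigned to near-identical copies, so its level is uncertain. Gapdh, Pgam1, Eno1 and Ldha also have such copies, and how shared reads were assigned is not stated in the labels.

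The lower steps, from glyceraldehyde-3-phosphate to pyruvate, went together: all 6 genes were above the control in all 5 treated libraries, beside 20.1% of tested genes, also when scaled by library total alone. The median log2 fold change was 0.94 at day 1 and 0.62 at day 7, and all 6 had lower means at day 7 than at day 1. Gapdh was at 340 CPM in the control, at 547, 733 and 676 CPM at day 1 and at 504 and 415 CPM at day 7, so the 3 groups did not overlap. Its day 1 log2 fold change was 0.94 (SE 0.363, edgeR adjusted p 0.577). Gapdh is often used as a reference gene, and here its lowest treated library was above the control.

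Pgk1, which makes the first ATP of the pathway, was at 161 CPM in the control, at 212, 242 and 216 CPM at day 1, and at 203 and 166 CPM at day 7. Its day 1 libraries were all above those of day 7, by a small step (log2 fold change against the control 0.48, SE 0.279, edgeR adjusted p 0.611). Pkm, pyruvate kinase of tissues other than liver and red cells, was at 341 CPM in the control, at 447, 831 and 677 CPM at day 1, and at 686 and 499 CPM at day 7. It was above the control throughout, and day 1 and day 7 overlapped (log2 fold change at day 1 0.94, SE 0.483, edgeR adjusted p 0.596). The counts do not separate the splice forms of Pkm. Pgam1 and Eno1 had day 1 log2 fold changes of 0.53 and 1.03. Eno2, the neuronal enolase, was at 0.130 CPM in the control, at 0.480, 10.3 and 0.644 CPM at day 1 and at 0.698 and 0.395 CPM at day 7, low throughout except in day 1 replicate 2.

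Lactate production and export came next. Ldha, whose subunit makes the enzyme form of glycolytic tissue, was at 193 CPM in the control, at 276, 588 and 428 CPM at day 1 and at 288 and 273 CPM at day 7. All treated libraries were above the control, and day 1 replicate 1 lay among the day 7 values (log2 fold change at day 1 1.16, SE 0.491, edgeR adjusted p 0.578, and 0.0856 without day 1 replicate 1). Ldhb, the heart subunit, was at 229 CPM in the control, at 326, 133 and 197 CPM at day 1 and at 156 and 112 CPM at day 7, with all treated libraries below the control except day 1 replicate 1. Per length, Ldha took 40.5% of the pair in the control, 40.6%, 78.0% and 63.7% at day 1, and 59.8% and 66.2% at day 7.

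Slc16a1 and Slc16a3 encode the lactate transporters MCT1 and MCT4, of which MCT4 is the export form of highly glycolytic cells. Slc16a1 was at 5.19 CPM in the control, at 14.2, 90.4 and 40.9 CPM at day 1 and at 27.1 and 26.1 CPM at day 7. Every treated library was above the control, and the day 1 libraries spread on both sides of day 7. The day 1 log2 fold change was 3.22 (SE 1.15, edgeR adjusted p 0.577) and 3.66 without day 1 replicate 1 (edgeR adjusted p 0.0245). At day 7 it was 2.35 (SE 1.12, edgeR adjusted p 0.479, and 0.0760 without day 1 replicate 1).

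Slc16a3 was at 23.6 CPM in the control, at 39.0, 60.5 and 58.9 CPM at day 1 and at 42.7 and 59.6 CPM at day 7. It was higher in all treated libraries, and the times overlapped. Its log2 fold changes were 1.16 at day 1 (SE 0.389, edgeR adjusted p 0.567) and 1.11 at day 7 (SE 0.403, edgeR adjusted p 0.477). Pdk1, which keeps pyruvate out of the mitochondrion and is a known HIF-1 target, was at 36.0 CPM in the control, at 38.2, 24.2 and 31.7 CPM at day 1 and at 28.1 and 28.5 CPM at day 7. It was below the control in all treated libraries but day 1 replicate 1.

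**Figure D3:**
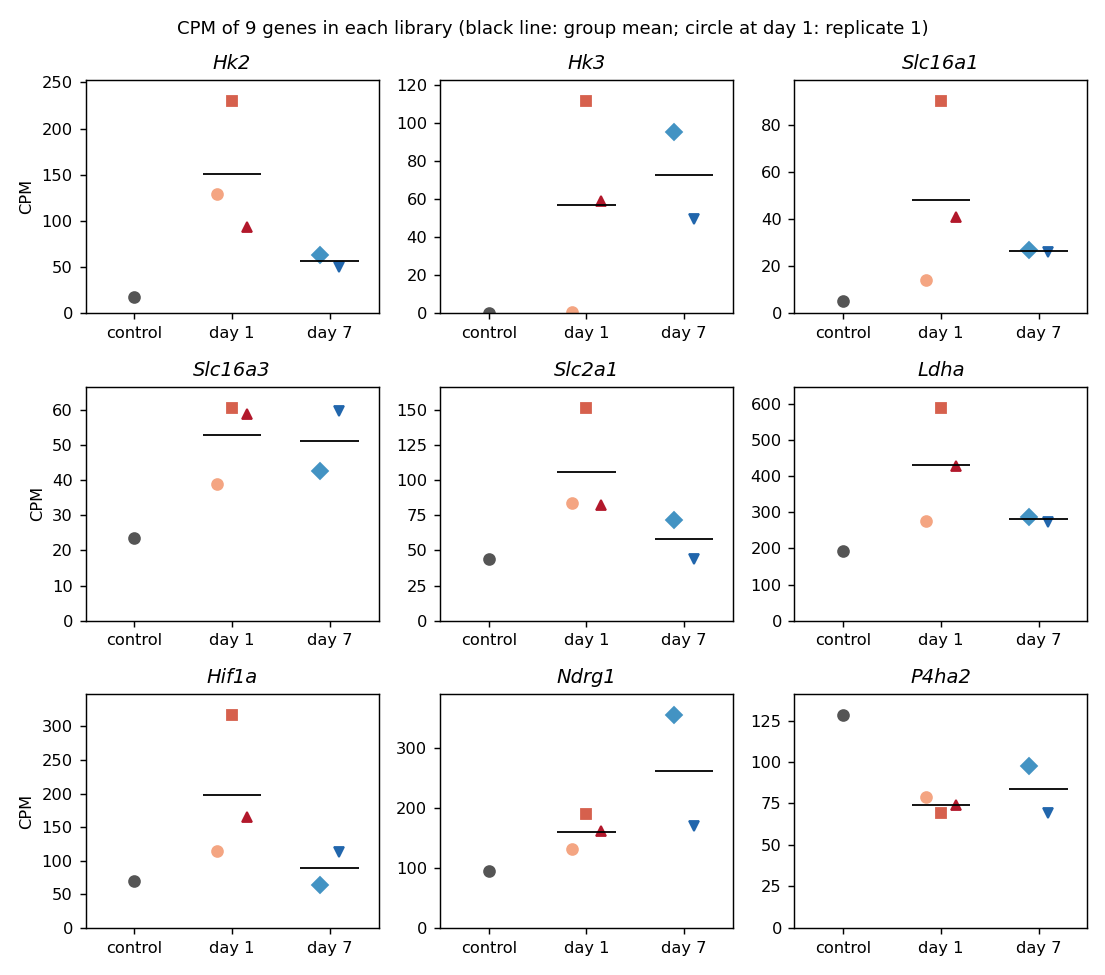
CPM of 9 genes in each library (points, linear axes from 0) in the control, day 1 and day 7, with the mean of each treated group as a line. Hk2 is lowest in the control at 18.2 CPM and highest at day 1, Hk3 is near 0 in the control and in day 1 replicate 1, and P4ha2 is highest in the control at 128 CPM.

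The oxygen-sensing genes had no common direction: their median log2 fold change was -0.11 at day 1, or 0.04 without day 1 replicate 1, and -0.21 at day 7. Hif1a was at 69.2 CPM in the control, at 114, 316 and 165 CPM at day 1 and at 64.3 and 113 CPM at day 7. All day 1 libraries were above the control and above day 7, the first by little (114 against 113 CPM), and day 7 lay on both sides of the control, or above it when scaled by library total alone. The log2 fold change was 1.52 at day 1 (SE 0.701, edgeR adjusted p 0.590) and 0.36 at day 7, and day 7 differed from day 1 by -1.16 on the log2 scale (SE 0.522, edgeR adjusted p 0.515).

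Epas1, typical of endothelium, was at 63.3 CPM in the control, at 14.9, 122 and 36.8 CPM at day 1 and at 56.0 and 51.9 CPM at day 7. Its day 1 order was that of the endothelial markers (99.5, 1004 and 205 CPM), and also that of the macrophage markers (54.1, 6173 and 2778 CPM). In day 1 replicate 2, where Epas1 was above the control, the endothelial sum was below its control level of 1136 CPM. There 5 of the 8 endothelial markers were above the control. The part of endothelium or macrophages in the Epas1 level was not tested. Of the hydroxylases, Egln1 was at 57.9 CPM in the control, at 57.5, 37.0 and 40.9 CPM at day 1 and at 57.6 and 43.7 CPM at day 7, none above the control, although this did not hold for every library when scaled by library total alone. Egln3, which HIF itself induces in many cells, was at 33.9 CPM in the control, at 39.0, 10.3 and 46.6 CPM at day 1 and at 19.8 and 12.5 CPM at day 7. Both day 7 libraries were below the control, and day 1 lay on both sides (log2 fold change at day 7 -1.07, SE 0.847, edgeR adjusted p 0.604).

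**Figure D4:**
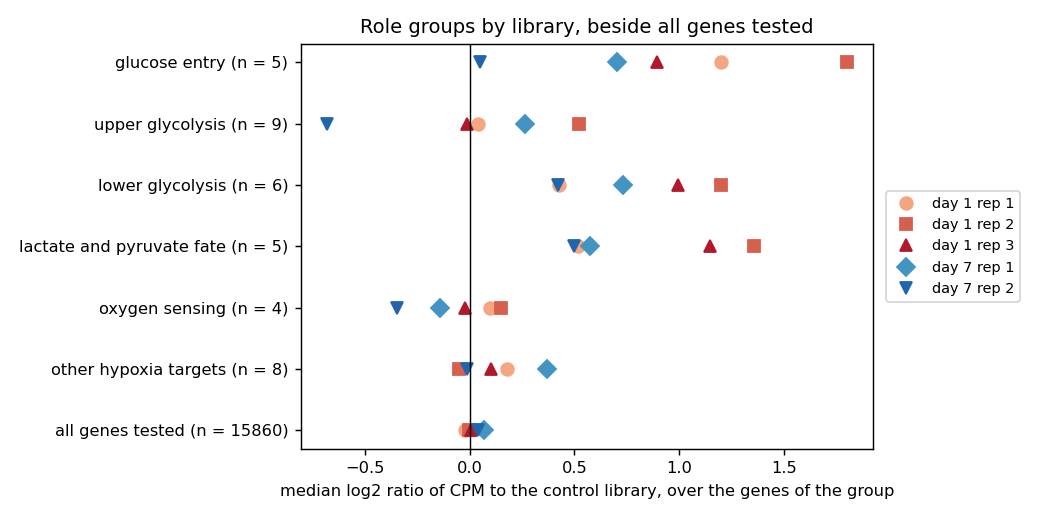
Median log2 ratio of CPM to the control over the genes of each role group (rows) in each treated library (points), beside all tested genes. Lower glycolysis lies between 0.42 and 1.20, and oxygen sensing between -0.35 and 0.15.

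The other hypoxia targets were mixed, with medians of 0.06 at day 1 and 0.30 at day 7. The day 7 library medians were 0.37 in replicate 1 and -0.01 in replicate 2. Ndrg1, a stress-responsive gene, was at 94.7 CPM in the control, at 131, 190 and 161 CPM at day 1 and at 354 and 170 CPM at day 7. It was above the control in every treated library, most in day 7 replicate 1 (log2 fold change at day 7 1.47, SE 0.533, edgeR adjusted p 0.477). That library also had the highest skeletal muscle marker sum, with 9 of the 10 markers above the control. Day 1 replicate 2 had the lowest sum, with 5 of the 10 above the control, and the next highest Ndrg1. The part of muscle in this was not tested. The prolyl 4-hydroxylase subunits for collagen parted: P4ha1 was at 94.4 CPM in the control, at 165, 127 and 123 CPM at day 1 and at 114 and 134 CPM at day 7. P4ha2 was at 128 CPM in the control, at 78.7, 69.5 and 74.3 CPM at day 1 and at 97.9 and 69.2 CPM at day 7. P4ha1 was above the control and P4ha2 below it in all 5 treated libraries, and the P4ha1 share of the pair per length was 39.7% in the control and 50.9% to 65.2% after treatment. For P4ha2 at day 1 the log2 fold change was -0.79 (SE 0.271, edgeR adjusted p 0.575).

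Bnip3 and Bnip3l guide the removal of mitochondria. Bnip3 was at 98.2 CPM in the control, at 84.2, 28.4 and 52.3 CPM at day 1 and at 76.4 and 36.7 CPM at day 7, below the control throughout. Bnip3l was at 89.5 CPM in the control, at 75.7, 100 and 102 CPM at day 1 and at 125 and 130 CPM at day 7, with both day 7 libraries above all others (log2 difference from day 1 0.46, SE 0.214, edgeR adjusted p 0.521). Adm, the vasodilator adrenomedullin, was at 7.92 CPM in the control and at 5.19 to 13.2 CPM in treated libraries, on both sides of it. Car9, a carbonic anhydrase much used as a hypoxia marker, was at 1.75 CPM in the control, and at 1.29 to 5.31 CPM in treated libraries. Ankrd37, a direct HIF-1 target, was at 1.40 CPM in the control and at 0.972 to 2.24 CPM in treated ones. For all 3 the control lay within the range of the treated libraries.

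Other genes of the same pathways, 61 listed and 59 found, give the setting. Of the 54 tested, 27 were higher and 27 lower at day 1, and edgeR called none with all libraries. Without day 1 replicate 1, edgeR called Stc1 and Slc2a4 at day 1 and Ak4 at day 7. Stc1, stanniocalcin 1, was at 3.31 CPM in the control, at 8.84, 25.6 and 14.5 CPM at day 1 and at 4.09 and 3.04 CPM at day 7, with every day 1 library above all others (log2 fold change without that library 2.60, edgeR adjusted p 0.0480). Slc2a4, the insulin-regulated transporter GLUT4, was at 197 CPM in the control, at 128, 29.0 and 34.6 CPM at day 1 and at 75.4 and 44.5 CPM at day 7. It was below the control in all treated libraries (log2 fold change without day 1 replicate 1 -2.63, edgeR adjusted p 0.0146).

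Ak4, a mitochondrial adenylate kinase, was at 2.47 CPM in the control, at 8.26, 9.86 and 7.60 CPM at day 1 and at 14.4 and 14.9 CPM at day 7. The 3 groups did not overlap (log2 fold change at day 7 2.57, SE 0.419, edgeR adjusted p 0.477, and 0.0288 without day 1 replicate 1). Vegfa, the endothelial growth factor and a HIF target, was at 29.6 CPM in the control, at 55.0, 233 and 101 CPM at day 1 and at 80.9 and 84.0 CPM at day 7, above the control throughout. Hif3a, a HIF inhibitor in some of its forms, was at 40.8 CPM in the control, at 13.0, 6.53 and 14.7 CPM at day 1 and at 8.70 and 1.67 CPM at day 7, below the control throughout. Pdk4, the starvation-responsive kinase, was at 210 CPM in the control, at 112, 20.3 and 71.3 CPM at day 1 and at 79.3 and 21.3 CPM at day 7, also below it.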

How the data were processed

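Gene counts and FPKM were deposited by the authors for 6 libraries of rat common carotid artery. The deposited counts divided by the deposited FPKM gave 1 length per gene in all libraries (largest relative spread 4.1e-14 over 18849 genes), so FPKM are the authors' counts scaled by length and library total. The submitters' processing notes list the tools StringTie 1.3.1, HISAT2, Bowtie2 2.2.8 and fastp 0.18.0. The role of each, the annotation and the genome build: not given in the sources used here. Among 24005 symbols, 5156 were at 0 throughout.

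The counts of 15860 genes passing filterByExpr were scaled by the trimmed mean of M-values and tested with the robust quasi-likelihood test of edgeR 4.0.16 in R 4.3.3, with 3 group means and 3 residual degrees of freedom, and p-values adjusted by the Benjamini-Hochberg method over all tested genes. DESeq2 1.42.0 and limma 3.58.1 were alternatives, with other scalings, filters, pseudocounts and left-out libraries. Fits were tested on simulated counts. For day 7 against the control, edgeR called 7 of 100 genes changed 4-fold and 4 unchanged genes. DESeq2 called 46 of the 100 and 112 unchanged genes. DESeq2 called more unchanged genes than edgeR in every comparison. The genes, lists and tests were chosen with earlier results of these data known. Values in every library are given for the genes called with or without day 1 replicate 1, the 6 genes with the smallest p and the 6 with the largest fold among those averaging at least 4 log2 CPM in each comparison, and a listed set of well-known genes, some of which are not reported here. FPKM were used for shares between paralogs, for levels named as FPKM and in the limma-trend alternatives.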

Additional observations from a re-analysis of the deposited data

Results flagged for a closer look

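Ddit4, a stress-induced inhibitor of the growth kinase mTOR and a listed hypoxia target, lay on opposite sides of the control at the 2 times. It was at 112 CPM in the control, at 64.8, 52.5 and 52.5 CPM at day 1, and at 223 and 178 CPM at day 7, so every day 1 library was below the control and every day 7 library above it. Day 7 was higher than day 1 by 1.83 on the log2 scale (SE 0.217), with an edgeR adjusted p of 0.402 and a DESeq2 adjusted p of 2.17e-08, the lowest of all alternatives, which ran up to 1.00. Such opposite sides were found for 890 of 15860 tested genes (5.61%).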

How the results depend on the processing

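The median over the 37 genes, the paralog shares and the fold changes of the genes that the rule named in each comparison kept their direction under the alternatives run on them. Without day 1 replicate 1 the day 1 median of the oxygen-sensing genes went from -0.11 to 0.04, and the fold changed sign for Epas1 and Ankrd37 at day 1 and for Hk3, Pfkfb3, Pdk1, Car9 and Ankrd37 between the times. Leaving out 1 treated library at a time gave 0 to 885 edgeR calls over all genes for day 1 against the control and 0 to 693 for day 7 against the control, and only leaving out day 1 replicate 1 gave any. Among the 37 genes the same range was 0 to 3 and 0 to 1. With all libraries DESeq2 called 817, 774 and 489 genes for day 1 and day 7 against the control and for day 7 against day 1, with 3, 1 and 0 of the 37. Without day 1 replicate 1, chosen as a pair with these tools after seeing the data, DESeq2 called 2227, 1976 and 699 genes, with 11, 4 and 3 of the 37, and limma-voom called 97 and 78 genes against the control at day 1 and day 7. Limma-trend on log2(FPKM + 0.1) called 1 gene at day 1, and at day 7 no count filter, log2(FPKM + 1), log2(FPKM + 0.1) and log2(FPKM + 0.1) with no filter called 1 gene each. The day 7 median over the 37 genes was 0.049 to 0.42 with a library left out. By counts in place of FPKM, the Hk2 share differed from the control by 21.5 percentage points at day 1 and 9.34 at day 7, in place of 17.4 and 7.24. With the replicate number of the sample titles as a block over the treated libraries, 0 genes were called, 0 of the 37, and the median was -0.16. Deviations of same-numbered libraries from their group means had r of -0.0481 and -0.0545. The submitters' column names number the day 7 libraries 2 and 3, and pairing by those numbers gave r of 0.0545 and -0.0101. The 2 day 7 libraries deviate as mirror images, so these values cannot settle whether any libraries are linked. Of the fold changes of named genes, 132, 120 and 158 values kept their side of the threshold and 12, 6 and 2 crossed it to become calls. Scaling by library total alone moved the median log2 fold change of all genes from 0.09 to 0.23 at day 7 against the control and from 0.00 to 0.11 between the times. The causes were not tested. The control has no replicate and day 7 has 2 libraries, which limits precision, and at this depth genes near 3 counts, such as Slc2a3, could not be compared.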

Other observations

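The pentose phosphate pathway, which branches from glycolysis after hexokinase and makes NADPH and ribose, was measured by 8 listed genes. All 8 of its listed genes had a positive day 1 log2 fold change (median 0.62), beside 54% of tested genes, and 7 of 8 a positive one at day 7 (median 0.84), beside 54.8%. With all libraries edgeR called none of the 8 and 0% of tested genes, and 1 of the 8, Rpia at day 7, had an unadjusted p under 0.05. DESeq2 called none of the 8. Pgd, which makes the second NADPH of the pathway, was at 61.1 CPM in the control, at 77.4, 315 and 166 CPM at day 1 and at 242 and 188 CPM at day 7. For Pgd, day 1 replicate 1 was the treated library closest to the control, as it was for the summed macrophage markers, whose part in this was not tested.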
